A study of Mus musculus with 4 samples.

Results

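The genes described here encode the proteins of the cytosolic ribosome, together with their paralogs and like-named copies. They are the rows of the count table whose symbol is Rpsa or starts with Rpl, Rps or Rplp followed by a number, without the pseudogene suffix "-ps" and without the letters that mark ribosomal protein kinases and binding proteins. The rule found 92 of the 55421 genes in the table. Of these, 43 encode proteins of the large (60S) subunit, 31 encode proteins of the small (40S) subunit, 3 encode the stalk proteins (Rplp0, Rplp1 and Rplp2), and 15 are paralogs or copies, 7 of which are annotated as processed pseudogenes.

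Poly(A) RNA-seq counts were examined in SSC cultures, that is, spermatogonial stem cells grown in primary culture, which had been derived from 6-day-old CD1 mouse pups and were kept on mouse embryonic fibroblast feeder cells. In the Veh group (2 libraries) the cells stayed in the complete culture medium. Cells of the NRRA group (2 libraries) received nutrient restriction medium, to which 90% Earle's balanced salt solution without amino acids had been added, together with retinoic acid (RA) for 2 days. The labels give bFGF and GDNF at 10 ng/ml each as growth factors of the culture, alike for both groups. The paper lists a higher GDNF concentration for the complete medium. Its restriction medium is complete medium diluted with the salt solution, so growth factors and serum were lowered along with amino acids. The parts of these changes and of RA cannot be told apart here. The study describes its sequencing replicates as biologically independent, and the labels do not say which culture or mice each library came from. Libraries of a group lay close together. Beyond counting error, edgeR put their typical spread over all genes at 2.61% of a gene's level. The edgeR p-values below rest on the spread within groups. Whether it covers the variation between separate cultures or mice was not tested.

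Each cytosolic ribosome carries a single copy of nearly every ribosomal protein, and proteins made in excess are degraded. In the large subunit the stalk, formed by P0 with pairs of P1 and P2, recruits the GTPases of translation. Ribosomal protein mRNAs begin with a 5′ terminal oligopyrimidine (TOP) tract, through which mTORC1 and the RNA-binding protein LARP1 adjust their translation and stability to the supply of amino acids. Several ribosomal protein genes on the X chromosome have autosomal retrocopies that are used in the testis, where the X chromosome is silenced during male meiosis.

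The coding sequences of the genes below are shown because reads from a parent gene and its copy can be told apart only where their letters differ. Sequences were taken from the GENCODE M21 transcripts (GRCm38) and are written 5′ to 3′, and capitals mark the positions at which parent and paralog differ. Rps27 (coding region chr3:90212725-90213615, minus strand) and Rps27l (chr9:66946175-66949357, plus strand) each had 255 coding bases and differed at 61 of them (76.1% identity), 53 of which were at the last position of a codon. The longest stretch they shared was 11 bases.
Rps27: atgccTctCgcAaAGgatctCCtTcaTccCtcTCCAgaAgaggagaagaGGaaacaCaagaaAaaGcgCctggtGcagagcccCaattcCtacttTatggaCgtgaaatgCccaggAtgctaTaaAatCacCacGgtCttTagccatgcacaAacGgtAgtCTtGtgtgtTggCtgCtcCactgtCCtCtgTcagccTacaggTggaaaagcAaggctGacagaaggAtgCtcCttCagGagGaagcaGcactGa
Rps27l: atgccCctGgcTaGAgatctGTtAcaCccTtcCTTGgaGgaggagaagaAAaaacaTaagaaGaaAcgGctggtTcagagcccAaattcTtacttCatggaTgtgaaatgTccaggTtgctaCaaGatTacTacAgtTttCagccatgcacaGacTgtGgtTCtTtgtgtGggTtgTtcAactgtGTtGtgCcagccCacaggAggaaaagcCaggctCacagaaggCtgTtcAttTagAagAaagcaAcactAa

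The retrocopy Rps27rt (chr9:114982453-114982707, minus strand) had a coding sequence identical to that of Rps27, with 0 differing bases over 255, so its sequence is the one printed for Rps27. Rpl39 (chrX:37082701-37085127, minus strand) and Rpl39l (chr16:10174310-10174465, plus strand) differed at 23 of 156 coding bases (85.3% identity).
Rpl39: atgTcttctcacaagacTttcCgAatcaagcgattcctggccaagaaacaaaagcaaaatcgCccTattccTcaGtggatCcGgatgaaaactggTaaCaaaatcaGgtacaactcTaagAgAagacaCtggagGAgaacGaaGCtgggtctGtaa
Rpl39l: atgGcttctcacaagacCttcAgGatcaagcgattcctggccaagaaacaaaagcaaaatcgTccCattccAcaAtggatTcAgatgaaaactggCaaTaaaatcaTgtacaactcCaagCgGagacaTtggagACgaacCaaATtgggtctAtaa

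Transcription start windows are shown for the stalk genes Rplp0 and Rplp2 and for genes with the largest and smallest changes within the ribosomal protein pool described below. They span 10 bases before and 20 bases from the RefSeq start (GRCm38.p6), and capitals mark the longest run in which a C was followed by at least 5 further letters that were all C or T, where there was one.
Rpl38 (chr11:114668570-114668599, plus strand): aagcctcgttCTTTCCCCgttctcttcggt
Rps10 (chr17:27635225-27635254, minus strand): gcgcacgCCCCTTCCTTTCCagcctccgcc
Rps27 (chr3:90213629-90213658, minus strand): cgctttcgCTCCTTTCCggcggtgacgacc
Rplp2 (chr7:141447641-141447670, plus strand): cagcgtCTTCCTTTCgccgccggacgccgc
Rplp0 (chr5:115559457-115559486, plus strand): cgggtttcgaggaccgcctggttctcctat
Rps4x (chrX:102189372-102189401, minus strand): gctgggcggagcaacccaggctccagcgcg
Rpl24 (chr16:55966265-55966294, plus strand): gctgttgctaggaaacagactgggcgctcg

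Such a run, with its first C between 20 bases before and 20 bases after the start, was present in 44 of the 67 genes of the group with a RefSeq start (65.7%) and in 36.0% of 27025 genes of the whole table of starts. On the opposite strand the shares were 19.4% and 39.6%. Genes with and without the run had close medians. The 39 core genes (subunit or stalk) with a run had a median log2 fold change of -0.27 and 35 of them were lower in NRRA, and the 18 without one had a median of -0.26 with 16 lower. Rps4x, which has no run in this window, fell more than Rps27, which has a run of 9 letters and rose.

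Library totals were between 28022265 and 31604769 counts. The 92 genes took 2.79% and 2.85% of all counts in the Veh libraries, against 2.47% and 2.50% after NRRA, and the 95% Wilson intervals of the Veh and NRRA libraries did not overlap (the nearest bounds were 2.78% and 2.51%; they cover counting error only). Levels are given in CPM, for which each library total was first adjusted by its TMM factor. Germ cell markers (9 genes) did not move together. Etv5, Gfra1, Ret and Zbtb16, which mark undifferentiated spermatogonia, were lower (log2 fold changes -1.97, -1.38, -2.82 and -2.43), Mael (-0.15) and Dnd1 (-0.09) were lower by little, Dazl (0.16) and Sall4 (0.84) were higher, and Ddx4, at 273 and 267 CPM in Veh and 271 and 278 CPM in NRRA, was not called. The list summed to 2706 and 2759 CPM in Veh and to 1867 and 1864 CPM in NRRA. Markers of differentiation (3 genes) were higher, with Kit at 5.59, Stra8 at 7.56 and Sohlh1 at 0.94 on the log2 scale, and summed to 72.3 and 73.2 CPM in Veh and to 2472 and 2473 CPM in NRRA. Fibroblast feeder markers (13 genes) summed to 10001 and 9910 CPM in Veh and to 7696 and 7534 CPM in NRRA. Most of that sum was Fn1, at 6136 and 6080 CPM in Veh and 4357 and 4347 CPM in NRRA. Of the 13 genes, 11 were lower, from Timp1 (-1.52) to Col1a1 (-0.10), and 1 was higher (Col3a1, 0.61). Among all genes tested, 28.4% were lower and 27.9% higher. None of these 3 lists held a gene at 0. Sertoli markers (5 genes) summed to between 34.3 and 37.8 CPM in Veh and to 16.1 and 16.6 CPM in NRRA, and most of that sum was Sox9 (log2 fold change -1.59, lower); Wt1 (-0.28) and Gata4 (0.48) were not called, and Amh and Cldn11 did not pass the filter. In such mixed cultures, fewer cells of a type and less RNA per cell cannot be told apart, and the part of these marker changes, those of differentiation included, in the results below was not tested.

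The ribosomal protein genes were lower as a group after NRRA. Their summed level was 28760 and 29360 CPM in the Veh libraries and 23896 and 24245 CPM in the NRRA libraries, and both NRRA libraries lay below both Veh libraries (log2 difference -0.27). Of the 91 genes that passed the filter on low counts, 74 were lower and 3 were higher at an adjusted p under 0.05 (edgeR quasi-likelihood test, Benjamini-Hochberg over all genes), and 14 did not pass the test. Among all 20232 genes tested, 28.4% were lower and 27.9% were higher. The median log2 fold change was -0.26 for the 91 genes and 0.0003 for all genes tested. In 80 of the 91 both NRRA libraries were below both Veh libraries, and in 5 both were above (38.6% and 38.1% of all genes tested). The changes were small: 1 member of the 91 passed the test with a change of at least 2-fold, against 13.3% of all genes tested. With library size alone as the scaling, 67 were lower and 7 higher, with a median of -0.17. That scaling moved the median of all genes to 0.09, and called 34.4% of all genes higher and 22.7% lower. The only gene that did not pass the filter, the pseudogene Rps12l1, was counted 3 and 0 times in the Veh libraries, and 0 and 4 times after NRRA.

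**Figure D1:**
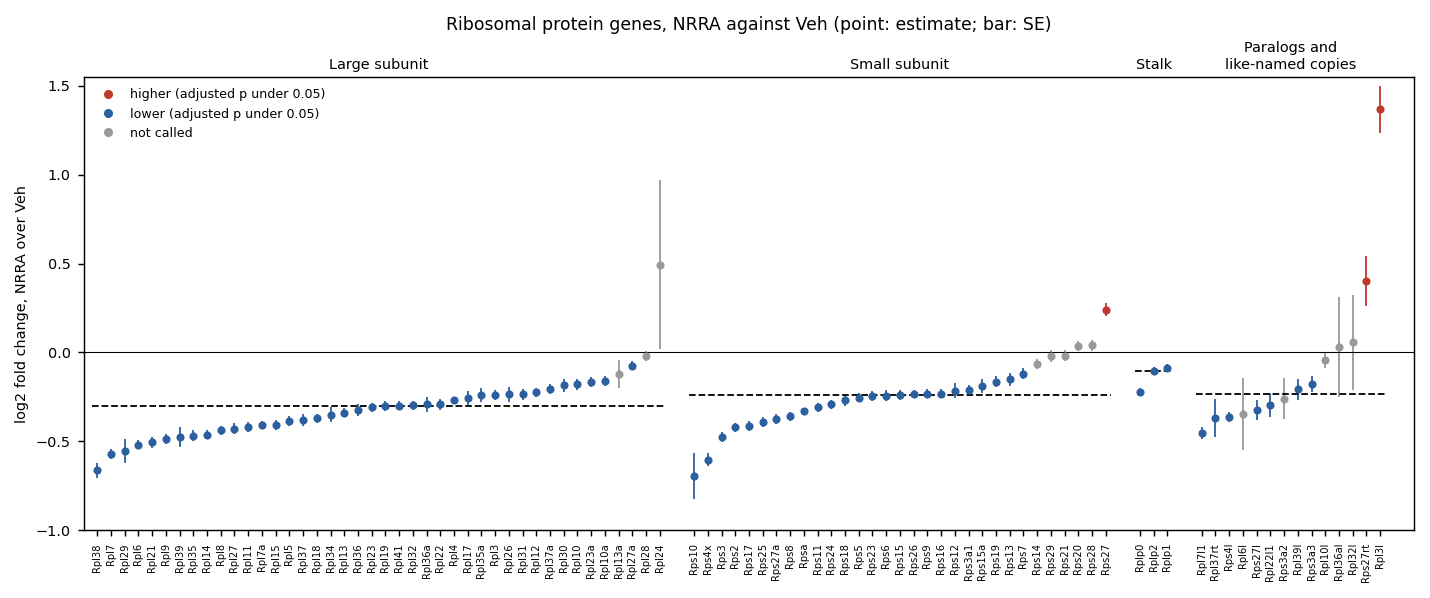
Log2 fold change (NRRA over Veh, vertical axis) of 90 of the 91 tested ribosomal protein genes, grouped by class and ordered within it; points are estimates, bars are standard errors, dashed lines are medians over all tested genes of a class and colours mark calls at an adjusted p under 0.05. Most points of the large and small subunit lie below 0, and Rpl3l (1.37), Rps27rt (0.40) and Rps27 (0.24) are the called points above it.

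Most genes of either subunit fell, by a little more in the large subunit, though the difference between the classes was not tested. Of 43, 39 were lower, 0 were higher and 4 were not called (edgeR gave the same counts of 39 and 0 without adjustment of p, at 0.05, and 2 higher genes with library size alone), with a median log2 fold change of -0.30. Their summed level was 14198 and 14565 CPM in Veh and 11510 and 11675 CPM in NRRA. Among small subunit genes, 25 of 31 were lower, 1 was higher and 5 were not called, with a median of -0.24 and summed levels of 11522 and 11697 CPM in Veh and 9686 and 9884 CPM in NRRA. The ratio of large to small subunit counts was 1.23 and 1.25 in Veh and 1.19 and 1.18 in NRRA. The NRRA ratios were the lower ones in both libraries, with a log2 difference of -0.06.

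The largest decreases were found in both subunits. Rpl38, a small 60S protein known for its part in the translation of Hox mRNAs, was at 112 and 107 CPM in Veh and 70.7 and 67.4 CPM in NRRA (log2 fold change -0.66, SE 0.0417, edgeR adjusted p = 3.48e-13). Rpl7, a 60S protein, was at 456 and 492 CPM in Veh and 319 and 320 CPM in NRRA (-0.57, SE 0.0293). The NRRA libraries of both genes differed from each other far less than from the Veh libraries. Rpl29 had 31.6 and 33.8 CPM in Veh and 22.4 and 22.2 CPM in NRRA (log2 fold change -0.55), and Rpl6 had 586 and 582 CPM in Veh and 402 and 413 CPM in NRRA (-0.52). Both encode 60S proteins, and in both the groups were apart.

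Rps4x, the X-linked gene of the 40S protein eS4, fell from 167 and 175 CPM in Veh to 114 and 111 CPM in NRRA (log2 fold change -0.60, SE 0.0348, edgeR adjusted p = 5.68e-14). Rps10, a 40S protein that is ubiquitylated when ribosomes collide, was at 8.84 and 8.53 CPM in Veh and 5.43 and 5.28 CPM in NRRA (log2 fold change -0.70, SE 0.130, edgeR adjusted p = 5.14e-05). Its count was low for a ribosomal protein gene (159 to 254 per library). It shares 28.2% of its exonic bases with other genes on the same strand, and the part of that overlap in its level was not tested. With pseudogene rows summed into their parent genes its log2 fold change was -0.41 (edgeR adjusted p = 0.00101).

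Rps27 was the only subunit gene called higher. It encodes a zinc-finger protein of the 40S subunit (eS27), lies at chr3:90212522-90213651, and was at 151 and 164 CPM in Veh and 186 and 187 CPM in NRRA (log2 fold change 0.24, SE 0.0347, edgeR adjusted p = 1.4e-06). Both NRRA libraries lay above both Veh libraries, and it was higher under each of the 12 alternatives run. Sequence nearly identical to that of other genes covers 67.0% of its longest transcript.

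Smaller decreases were called for 40S genes such as Rps7 (-0.12), Rps13 (-0.15) and Rps19 (-0.16), the last of which is mutated in Diamond-Blackfan anemia, and for the 60S genes Rpl27a (-0.07) and Rpl10a (-0.16), all as log2 fold changes. Rpl27a was at 434 and 459 CPM in Veh and at 423 and 426 CPM in NRRA (edgeR adjusted p = 0.0214). This call was lost without Veh replicate 2 (log2 fold change -0.03), without NRRA replicate 1 (-0.07) and with DESeq2, and the sign turned with library size alone (0.02). The calls of Rps7 and Rps13 were also lost without Veh replicate 2 (-0.06 and -0.08) and with library size alone (-0.03 and -0.06).

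Of the 9 subunit genes that were not called, those described here, named after their values were seen, are Rpl13a, Rpl24 and Rpl28 of the large subunit and Rps14, Rps20, Rps21, Rps28 and Rps29 of the small subunit. Rps28, a small 40S protein at the mRNA exit channel, had 410 and 445 CPM in Veh and 432 and 448 CPM in NRRA, and the groups overlapped (log2 fold change 0.04, SE 0.0303). It was called higher without Veh replicate 2 (0.10) and with library size alone (0.13, edgeR adjusted p = 0.000595), and without Veh replicate 1 its sign turned (-0.02). Rps20, Rps21, Rps29 and Rpl28 had log2 fold changes of 0.04, -0.02, -0.02 and -0.02. Rps14 was at 341 and 329 CPM in Veh and at 315 and 326 CPM in NRRA (log2 fold change -0.06, edgeR adjusted p = 0.0527).

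Genes with a named role in signalling were among those that fell. Rpl5 and Rpl11, which with the 5S rRNA bind and restrain Mdm2 when ribosome assembly is disturbed, had log2 fold changes of -0.39 (SE 0.0268) and -0.42 (SE 0.0274). Rpl5 was at 394 and 408 CPM in Veh and at 304 and 310 CPM in NRRA, and Rpl11 was at 315 and 320 CPM in Veh and at 235 and 239 CPM in NRRA. Rps6, the 40S protein phosphorylated by S6 kinase downstream of mTORC1, was at 378 and 353 CPM in Veh and at 306 and 312 CPM in NRRA (log2 fold change -0.24, SE 0.0296, edgeR adjusted p = 9.79e-08). In none of these genes did the groups overlap.

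Changes of the subunit genes were also set against their coding length, which ranged from 78 bases in Rpl41 to 1260 bases in Rpl4. Across the 31 small subunit genes, Spearman's rho between coding length and log2 fold change was -0.57, and across 42 large subunit genes with a mean of at least 1 CPM it was -0.08. These are descriptions over genes of the same 4 libraries, and genes are not independent replicates. Of the 9 core genes with at most 300 coding bases, 5 were lower and 1 was higher (median log2 fold change -0.21), whereas 21 of the 22 with more than 600 were lower (median -0.35). Among all genes tested, 28.4% were lower and 27.9% were higher. The short genes that were lower were Rpl37, Rpl37a, Rpl38, Rpl39 and Rpl41, all of the large subunit. Of the small subunit, Rps27 was higher, and Rps21, Rps28 and Rps29 were not called. Over 20209 tested genes with a transcript length, rho between length and log2 fold change was 0.09. Over 76 core genes together, rho was -0.28 with coding length, -0.01 with the GC content of the transcript and 0.07 with the mean level.

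**Figure D2:**
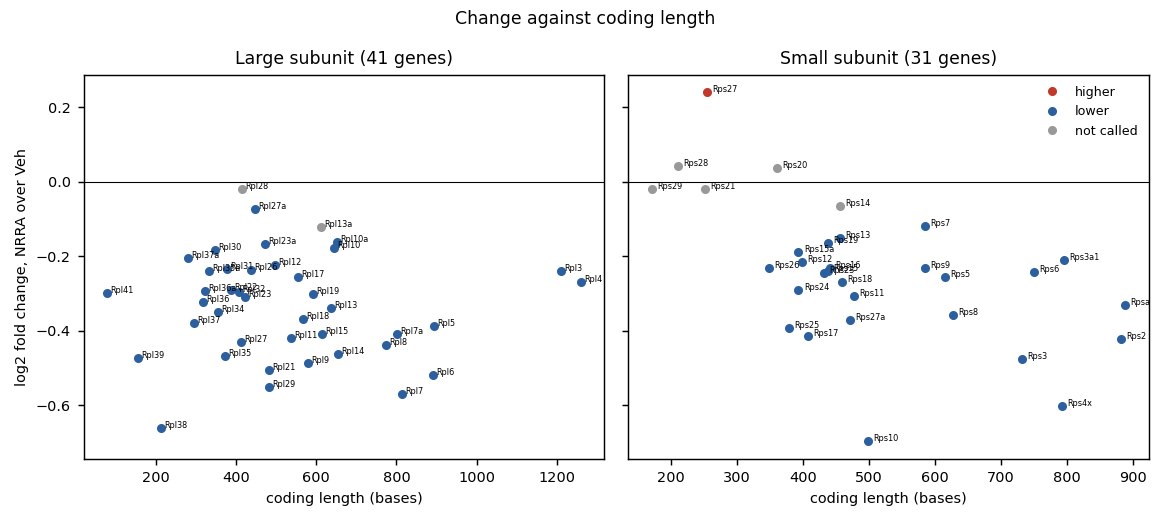
Log2 fold change (NRRA over Veh, vertical axis) against coding length in bases (horizontal axis) for 41 of the 42 large subunit genes (left) and 31 small subunit genes (right); colours mark calls at an adjusted p under 0.05. On the right the short genes Rps27, Rps28, Rps29 and Rps21 sit near or above 0 and Rps4x, Rps3 and Rps2 are low, and on the left the short genes Rpl38 and Rpl39 are among the lowest.

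The 3 stalk genes fell less than the large subunit median. Rplp0, the scaffold of the stalk, was at 1091 and 1152 CPM in Veh and at 961 and 962 CPM in NRRA (log2 fold change -0.22, SE 0.0237, edgeR adjusted p = 9.32e-09). Rplp1 was at 638 and 636 CPM in Veh and at 602 and 595 CPM in NRRA (-0.09, SE 0.0229, edgeR adjusted p = 0.00158), and Rplp2 was at 536 and 543 CPM in Veh and at 505 and 500 CPM in NRRA (-0.10, SE 0.0238, edgeR adjusted p = 0.000552). In all 3 genes both NRRA libraries were below both Veh libraries with TMM scaling, but with library size alone Rplp0 was the 1 gene still called, and Rplp1 (0.00) and Rplp2 (-0.01) were not. The ratio of Rplp1 and Rplp2 counts to Rplp0 counts, which does not depend on the scaling, was 1.08 and 1.02 in Veh and 1.15 and 1.14 in NRRA (log2 difference 0.13). The ratio of stalk to large subunit counts was 0.160 in both Veh libraries and 0.180 and 0.176 in NRRA.

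To ask which genes departed from the common decrease, each library was scaled to its own ribosomal protein counts, so that a fold change is a change in a gene's share of that pool. By this scaling 20 of the 91 genes were higher and 27 were lower (edgeR adjusted p under 0.05), beside 48.9% and 14.1% of all genes tested, and the median over the 91 was 0.01. Within large subunit genes 6 were higher and 17 lower, within small subunit genes 9 were higher and 8 lower, and among stalk genes 2 were higher and 0 lower (edgeR without adjustment of p, at 0.05, also gave 0). Rplp1 and Rplp2 were the higher stalk genes, with pool log2 fold changes of 0.18 (SE 0.0302) and 0.17 (SE 0.0304), and Rplp0 was at 0.05 (SE 0.0289, edgeR adjusted p = 0.134).

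The smallest pool values were those of Rps10 (-0.42, SE 0.132), Rpl38 (-0.39, SE 0.0472) and Rps4x (-0.33, SE 0.0393), and the largest among called subunit genes was that of Rps27 (0.51, SE 0.0378, edgeR adjusted p = 1.04e-12). Rpl24 had a higher estimate (0.77) with an SE of 0.471 and was not called. Because the pool is fixed in each library, a gain in share by some genes is a loss by others. Rpl10 (0.09, edgeR adjusted p = 0.0261), Rpl10a (0.11), Rpl27a (0.20), Rps7 (0.15), Rps13 (0.12) and Rps19 (0.11) fell per library yet were higher within the pool.

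**Figure D3:**
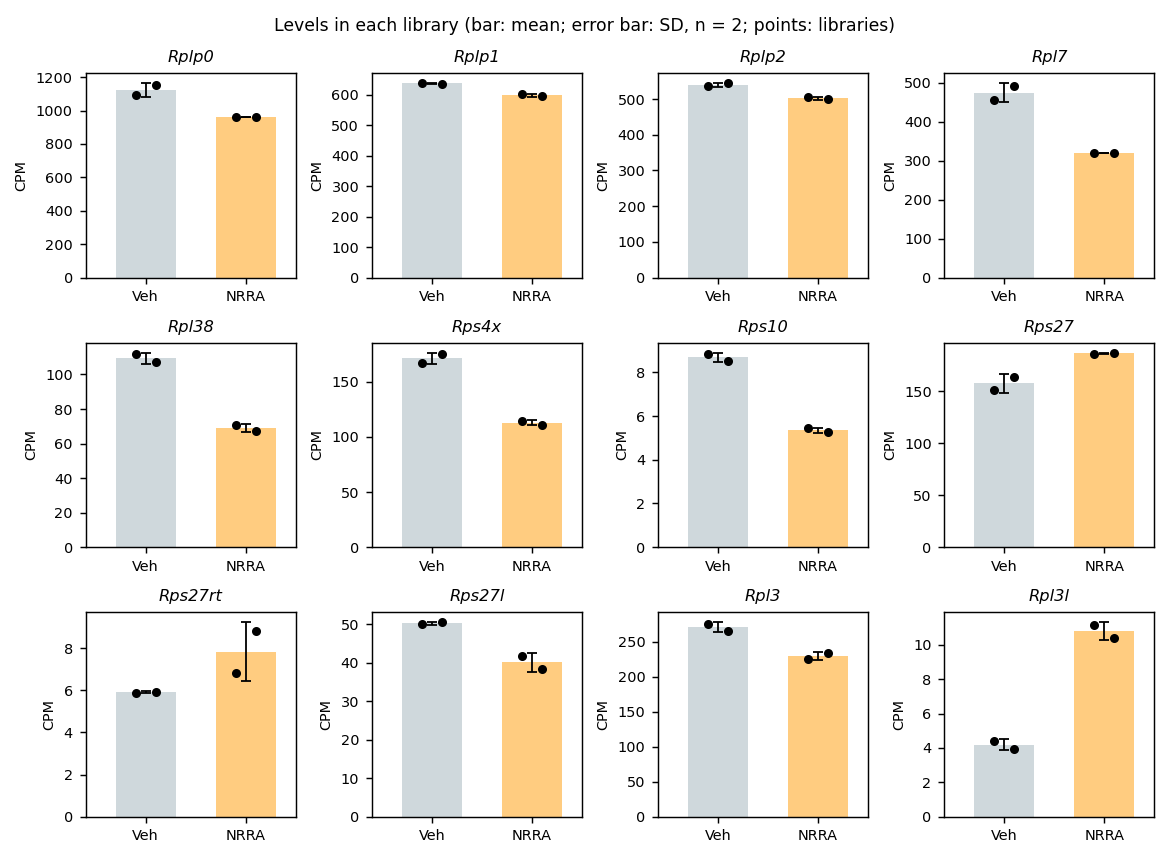
Levels of 12 ribosomal protein genes in CPM (vertical axis, from 0) in the Veh and NRRA groups; bars are means, error bars are SD (n = 2) and points are libraries. Rplp0, Rplp1, Rplp2, Rpl7, Rpl38, Rps4x, Rps10, Rps27l and Rpl3 are lower in both NRRA libraries, and Rps27, Rps27rt and Rpl3l are higher in both.

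Levels differed widely among the genes. In CPM per kilobase of a representative transcript, averaged over the 4 libraries, the highest were Rplp1 (1238), Rps28 (1135) and Rps24 (1084). The lowest subunit genes were Rpl24 (0.892), Rps10 (7.91) and Rpl13a (19.7). Rpl24, a 60S protein that forms a bridge between the subunits, was counted 7 and 22 times in the Veh libraries, and 29 and 16 times after NRRA. It shares 71.5% of its exonic bases with Gm28037 on the same strand, Rpl13a shares 53.3% of its exonic bases with Gm45713 and Mir5121, and Rps10 shares 28.2%. Gm28037, Gm45713 and Mir5121 had 0 counts in each library. How reads in shared exons were counted is not given in the sources used here, and the part of the overlap in these levels was not tested. For Rps15a and Rps20 the representative transcripts were long (5130 and 3706 bases, with coding lengths of 393 and 360), so that their values per kilobase (42.2 and 84.4) depend on that choice.

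Of the 15 paralogs and copies, 14 were tested, of which 7 were lower, 2 were higher and 5 were not called (median log2 fold change -0.23), beside 28.4% lower and 27.9% higher of all genes tested. Rpl3l, the striated muscle paralog of Rpl3, showed the largest change of the 91 genes. It was counted 120 and 118 times in the Veh libraries, and 364 and 314 times after NRRA, that is 4.42 and 3.96 CPM against 11.2 and 10.4 CPM (log2 fold change 1.37, SE 0.132, edgeR adjusted p = 1.4e-09). Its parent Rpl3 fell from 276 and 266 CPM to 225 and 234 CPM (log2 fold change -0.24, SE 0.0297). Rpl3l counts were between 1.49% and 1.6% of Rpl3 counts in the Veh libraries, against 4.95% and 4.45% after NRRA, so the paralog remained a small part of the pair in each library. No stretch of its longest transcript was near-identical to another gene.

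The family of Rps27 moved in different directions. Rps27l, a p53-responsive paralog whose sequence is printed above, was at 49.98 and 50.5 CPM in Veh and at 41.9 and 38.4 CPM in NRRA (log2 fold change -0.32, SE 0.0561, edgeR adjusted p = 2e-05), whereas Rps27 rose. Rps27l counts were 33.0% and 30.8% of Rps27 counts in the Veh libraries, against 22.5% and 20.5% after NRRA, and the groups did not overlap (log2 difference of the ratio -0.57, exact two-sided permutation p = 0.333, the smallest that 2 against 2 libraries allow). Rps27rt was at 5.89 and 5.94 CPM in Veh and at 6.84 and 8.83 CPM in NRRA (log2 fold change 0.40, SE 0.141, edgeR adjusted p = 0.0179). That call was lost without NRRA replicate 2 (0.21) and with DESeq2 (0.40, DESeq2 adjusted p = 0.0953). Since the coding sequences of Rps27rt and Rps27 are identical and 92.2% of its longest transcript is covered by near-identical sequence elsewhere, its counts are uncertain.

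Rpl22l1, which can take the place of Rpl22 in the large subunit, changed alongside it. Rpl22l1 was at 32.3 and 31.3 CPM in Veh and at 26.4 and 25.4 CPM in NRRA (log2 fold change -0.30, SE 0.0660, edgeR adjusted p = 0.000398), and Rpl22 was at 165 and 169 CPM in Veh and at 137 and 136 CPM in NRRA (-0.29, SE 0.0326). The paralog was at 19.6% and 18.5% of its parent in Veh and at 19.2% and 18.7% in NRRA, and these groups overlapped. Near-identical sequence of other genes covers 77.7% of the longest transcript of Rpl22l1, so this ratio is uncertain. Rpl7l1, the paralog of Rpl7, fell by 0.45 on the log2 scale (SE 0.0338), from 159 and 163 CPM to 117 and 118 CPM.

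The 4 genes on the X chromosome (Rpl10, Rpl36a, Rpl39 and Rps4x) were lower in both NRRA libraries, as were 38.6% of all genes tested. Their log2 fold changes were -0.18, -0.29, -0.47 and -0.60, with a median of -0.38. Of the 73 core genes on autosomes, 63 were lower, with a median of -0.26. Within the ribosomal protein pool 1 of the 4 was higher, 2 were lower and 1 was not called. The difference between X-linked and autosomal genes was not tested. Rpl39 was at 50.4 and 55.4 CPM in Veh and at 38.6 and 37.7 CPM in NRRA (log2 fold change -0.47, SE 0.0570), and its autosomal paralog Rpl39l, which is abundant in the testis and lines the exit tunnel of the ribosome, was at 40.4 and 38.9 CPM in Veh and at 34.4 and 34.2 CPM in NRRA (-0.21, SE 0.0587, edgeR adjusted p = 0.00401). The call of Rpl39l was lost with library size alone (-0.12). Rpl39l counts were 80.1% and 70.1% of Rpl39 counts in the Veh libraries, against 89.2% and 90.8% after NRRA. No near-identical stretch was found for Rpl39l, whose coding sequence is printed above beside that of its parent.

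Rpl10l, the retrocopy of Rpl10 that is needed for male meiosis in mice, was at 68.7 and 69.9 CPM in Veh and at 68.5 and 65.9 CPM in NRRA (log2 fold change -0.04, SE 0.0450, edgeR adjusted p = 0.427; 0.05 with library size alone, and -0.07 to -0.02 with 1 library left out). Rpl10, which joins the 60S subunit late in its assembly, fell from 192 and 194 CPM to 171 and 169 CPM (log2 fold change -0.18, SE 0.0303). Rpl10l was therefore at 35.8% and 36.1% of Rpl10 in Veh and at 40.0% and 38.9% in NRRA. Near-identical sequence of other genes covers 62.5% of the longest transcript of Rpl10l and 86.2% of that of Rpl10, so this ratio is uncertain. Within the ribosomal protein pool Rpl10l was higher (0.23, SE 0.0489, edgeR adjusted p = 0.000176). The median of all genes tested with that scaling was 0.27.

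Rps4l, annotated as a pseudogene, had more counts than its X-linked parent Rps4x, at 187% and 174% of it in Veh and 209% and 217% in NRRA. Near-identical sequence of other genes covers 82.5% of the longest transcript of Rps4x and none of that of Rps4l, so the ratio is uncertain. It was at 313 and 303 CPM in Veh and at 239 and 241 CPM in NRRA (log2 fold change -0.36, SE 0.0279, edgeR adjusted p = 2.02e-11). Rpl36al was counted 37 and 50 times in the Veh libraries, and 59 and 39 times after NRRA, 1.14% to 1.76% of the counts of its X-linked parent Rpl36a, and the groups overlapped (log2 fold change 0.03, SE 0.279). It shares 24.5% of its exonic bases with Gm49383 on the same strand, which was counted between 162 and 212 times per library. Rpl36a fell from 119 and 131 CPM to 103 and 102 CPM (log2 fold change -0.29, SE 0.0408).

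Rps3a3 and Rps3a2, pseudogene copies of the 40S gene Rps3a1, were each covered over their whole longest transcript by near-identical sequence of other genes, and their counts are uncertain. Rps3a1 had a log2 fold change of -0.21 (SE 0.0268), Rps3a3 one of -0.18 (SE 0.0444, lost with library size alone at -0.09), and Rps3a2 one of -0.26 (SE 0.117, edgeR adjusted p = 0.0614), which was called without Veh replicate 2 (-0.36) and was at -0.16 without Veh replicate 1. Rps3a3 was at 18.8% and 18.4% of Rps3a1 in Veh and at 19.4% and 18.6% in NRRA. The remaining copies were Rpl37rt (-0.37, SE 0.106, edgeR adjusted p = 0.00424), Rpl6l (-0.35, SE 0.203, not called) and Rpl32l (0.06, SE 0.266, not called), with 278 to 365, 65 to 94 and 41 to 56 counts per library. Rpl6l was at -0.56 without NRRA replicate 1 and at -0.16 without NRRA replicate 2, and was called in neither.

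**Figure D4:**
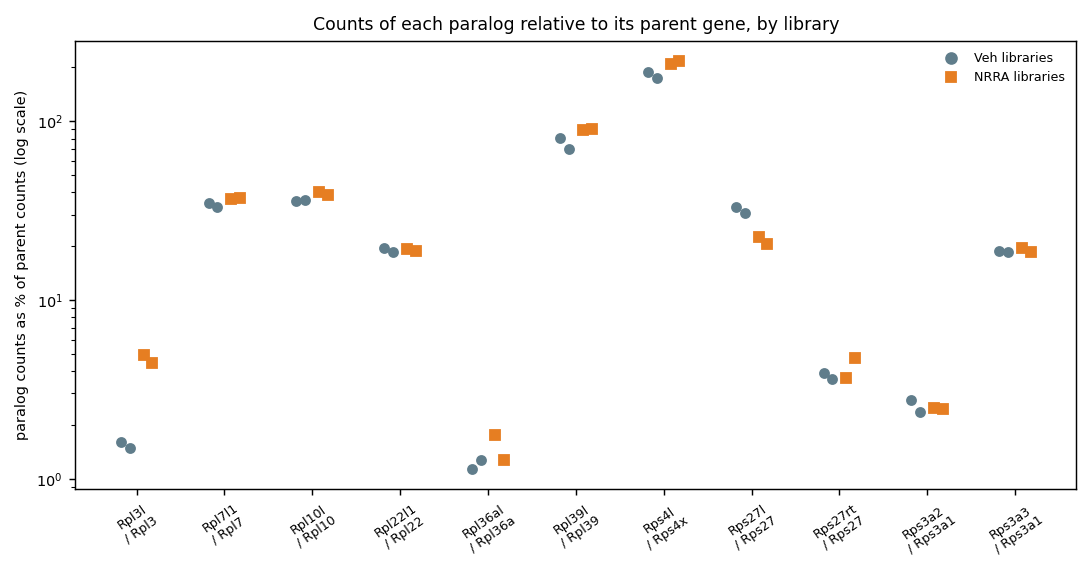
Counts of each paralog as a percentage of the counts of its parent gene (vertical axis, log scale) for 11 pairs in the 2 Veh libraries (circles) and the 2 NRRA libraries (squares). The NRRA squares lie above the circles for Rpl3l, Rpl7l1, Rpl10l, Rpl39l and Rps4l and below them for Rps27l, and they overlap for the Rpl22l1, Rps27rt, Rps3a2, Rps3a3 and Rpl36al pairs.

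The decrease was also seen among genes with near-identical sequence over a smaller part of their longest transcript. Of the 31 genes with under 50% of their longest transcript near-identical to other genes, 26 were lower and 1 was higher (median log2 fold change -0.29). Among all genes tested, 28.4% were lower and 27.9% were higher. A long transcript can hide a shared coding part in this measure. Rps20, with 12.5% of 3706 bases near-identical and a coding length of 360, is among the 31. Sharing of the coding parts alone was not tested. Of the 84 tested genes without exonic overlap on the same strand, 71 were lower and 3 were higher (median -0.26).

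Other genes of the translation machinery were read in the same comparison. Of 19 other genes with TOP mRNAs, 15 were lower and 1 was higher (median log2 fold change -0.26), and of all genes tested 28.4% were lower and 27.9% were higher. Eef1g, a subunit of the elongation factor complex eEF1, had the lowest value (-0.66, SE 0.0248), and Tpt1, which encodes the translationally controlled tumour protein, the highest (0.30, SE 0.0253, from 530 and 510 CPM to 652 and 632 CPM). This list holds Fau, which encodes a ribosomal protein fused to a ubiquitin-like protein and has no Rp symbol (-0.16, lower). All 10 genes for elongation and termination, 6 of which are also among the other TOP mRNAs, were lower (median -0.36; 8 with library size alone, and 9 with DESeq2, without Veh replicate 2 or without NRRA replicate 2), from Etf1, a release factor (-0.86), to Abce1, which recycles ribosomes (-0.10, edgeR adjusted p = 0.0150).

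Among 34 initiation genes, which share 4 with the other TOP mRNAs, 25 were lower and 4 were higher (median log2 fold change -0.22), with Eif2s3x, a subunit of eIF2, lowest (-0.76) and Eif1b highest (0.47). Partners and late assembly factors of ribosomal proteins had 15 of 19 lower and 0 higher (edgeR without adjustment of p, at 0.05, gave 1 higher), with a median of -0.25. Tsr2, the escort of the 40S protein eS26, was lowest (-0.76, SE 0.0478), and Riok1, a kinase of 40S maturation, highest (0.13, edgeR adjusted p = 0.0711). Mitochondrial ribosomal proteins were taken by symbol (Mrpl or Mrps with a number), without leaving out symbols that carry a pseudogene suffix. Of 83 symbols 79 were tested, with 44 lower and 8 higher (median -0.17), beside 28.4% lower and 27.9% higher of all genes tested. With library size alone 26 were lower and 13 higher (median -0.08). Their values lay between Mrps6 (-1.18) and Mrps28 (0.67).

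Of 7 regulators of TOP mRNAs, 3 were lower and 2 were higher (median log2 fold change -0.0030), beside 28.4% and 27.9% of all genes tested. Larp1, the protein that binds the TOP tract, was at 559 and 562 CPM in Veh and at 317 and 333 CPM in NRRA (log2 fold change -0.79, SE 0.0264, edgeR adjusted p = 6.05e-19). Its paralog Larp1b was at 21.4 and 21.1 CPM in Veh and at 39.8 and 42.1 CPM in NRRA (log2 fold change 0.95, SE 0.0654, edgeR adjusted p = 2.18e-12). The NRRA and Veh libraries of both genes were far apart, in opposite directions.

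**Figure D5:**
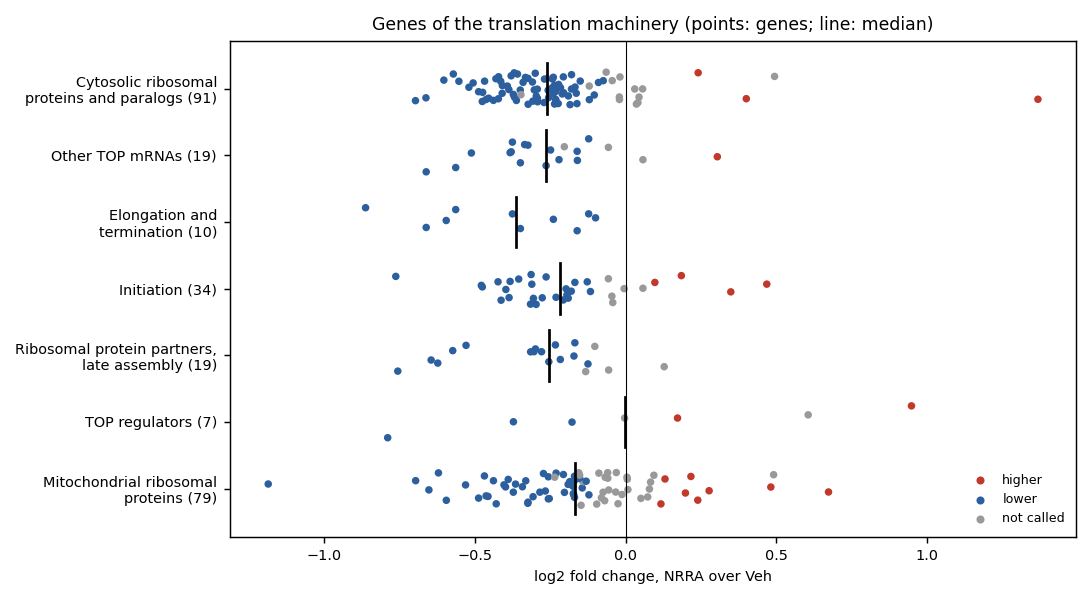
Log2 fold change (NRRA over Veh, horizontal axis) of the genes in 7 lists of the translation machinery, with the number tested in parentheses; points are genes, black lines are medians and colours mark calls at an adjusted p under 0.05. The medians of the cytosolic ribosomal proteins (-0.26), other TOP mRNAs (-0.26), elongation (-0.36), initiation (-0.22), partners (-0.25) and mitochondrial ribosomal proteins (-0.17) lie below 0, and that of the TOP regulators lies at 0.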

How the data were processed

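RNA-seq of 2 Veh and 2 NRRA libraries was analysed. The deposited file holds raw counts, not normalized, for each gene and library. The submitters' processing notes name bcl2fastq, STAR 2.6.1c, featureCounts 1.6.4 and mm10. The annotation, strand and multimapping settings are not given in the sources used here. The study's methods describe a stranded oligo-dT kit from Tecan, the labels an Illumina kit. Veh columns were matched by description, as their numbers differ from the titles.

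Counts were tested with edgeR 4.0.16 in R 4.3.3 (filterByExpr, TMM, robust quasi-likelihood F test, Benjamini-Hochberg over 20232 genes, threshold 0.05). A second fit used the summed ribosomal protein counts as library size. CPM are TMM-scaled. SE, the standard error, comes from the F statistic. On simulated data with a common dispersion for all genes, 91% of 0.5 and 100% of 1.0 log2 changes were called. Smaller changes, such as most of those described here, were not simulated, so these shares do not apply to them. Single values had exact permutation tests. DESeq2 1.42.0, library size, RLE, filters, a replicate block, pseudogene rows summed into parents and leave-one-out were alternatives. Positions are from GENCODE M21, in which 99.7% of gene identifiers were found, and near-identical means at least 95% identity over at least 100 bases.

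The genes and lists were chosen with earlier results of these data known. Named were the stalk genes, paralogs with their parents, copies with 10 counts or more, the 6 largest and 6 smallest changes among called subunit genes with groups apart, the 3 largest and 3 smallest within the pool, the 3 highest and 3 lowest levels per length, 7 genes of known roles or on the X chromosome, and the extremes of each related list. Values of some single genes are not reported here.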

Additional observations from a re-analysis of the deposited data

How the results depend on the processing

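Across the alternatives run, the count of lower genes among the 91 stayed between 67 and 75. The median log2 fold change stayed between -0.29 and -0.17, where -0.29 is that of a subset of 31 genes given below. With 1 library left out, the median of the group was between -0.28 and -0.24. Library size alone gave the lowest of these counts, with 7 genes higher. With it, 2 large subunit genes (median -0.21) and 3 small subunit genes (median -0.15) were higher, 1 stalk gene was lower (median -0.014), and the paralog median was -0.14; the summed level differed by -0.18. In the related lists the same scaling gave medians of -0.17 for other TOP mRNAs (2 higher), -0.13 for initiation, -0.27 for elongation, -0.16 for partners (1 higher), 0.087 for TOP regulators and -0.079 for mitochondrial ribosomal proteins (13 higher, 26 lower). It kept the calls of Rpl3 (-0.15), Rpl10 (-0.089), Rpl10a (-0.071), Rplp0 (-0.13), Rps3a1 (-0.12), Rps6 (-0.15) and Rps19 (-0.074) at smaller values. DESeq2 called 1 paralog higher. A filter at a mean of 1 CPM moved the median of the TOP regulators to -0.090, and no filter gave 1 partner gene higher. Restriction to the 31 genes with under 50% near-identical sequence, added after seeing the data, gave a median of -0.29 for these genes.

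Leaving out 1 library gave 1 to 2 higher small subunit genes (median -0.26 to -0.21), 1 to 2 higher paralogs (median -0.28 to -0.18), 1 to 2 higher other TOP mRNAs (median -0.31 to -0.25), 0 to 1 higher partner genes (median -0.26 to -0.25) and 1 to 2 higher TOP regulators. Among the uncalled genes that were examined under the alternatives, signs turned for Rpl24, Rpl32l, Rpl36al and Rps28. These ranged over the libraries left out from -0.048 to 1.45, from -0.12 to 0.22, from -0.23 to 0.25 and from -0.017 to 0.0997. The sign of Rpl10l turned with library size alone (0.046). Rpl28, Rps14, Rps20, Rps21 and Rps29 were not examined in this way. Rpl27a (0.016) and Rplp1 (4.52e-06), which had been called lower, turned sign with library size alone. The cause was not tested.

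Library replicate numbers did not pair the samples: deviations of same-numbered libraries from their group means had a correlation of -0.01. With the replicate block 74 genes were lower and 3 higher, and none of the 91 calls changed. Within the pool the block gave 22 higher and 29 lower, and 4 of the 91 calls changed. The low counts of Rpl24, Rpl32l, Rpl36al and Rps12l1 limit what could be detected for them. A count of 3, taken as the floor, was between 0.0920 and 0.110 CPM.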

Other observations

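A total of 309 rows carry a ribosomal protein symbol with the "-ps" suffix of a pseudogene, and 224 of them had a count. Together they held 0.0972% and 0.0958% of the counts in Veh and 0.0833% and 0.0841% in NRRA. Over the 4 libraries their counts equalled 3.40% of those of the 92 genes, which do not include these rows. Of the 117 that passed the filter on low counts, 20 were lower (17.1%) and 1 was higher (edgeR adjusted p under 0.05), beside 28.4% and 27.9% of all genes tested, with a median log2 fold change of -0.23.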
